A study of Mus musculus with 75 samples.

Results

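The p53 target genes described here are 32 genes, p53 itself included, of the 24984 genes counted in RNA-seq libraries of mouse skin fibroblasts. The genes were taken by name from a list of p53 pathway members and targets, with Cdkn1a left out, and the rule used no measured value. The list was drawn up with earlier results of these data known, so counts among the 32 are not those of a blind choice. All 32 were found in every count file and all 32 passed the filter on low counts in each of the 5 experiments, so none was dropped. They were ordered by role as p53 and its regulators (3 genes), growth arrest (6), death receptors and surface proteins (5), intracellular apoptosis (9), DNA repair and nucleotide supply (4), and stress and metabolism (5).

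The libraries came from a study of replicative senescence (RS), the loss of proliferation that follows repeated passaging. Untreated skin fibroblasts of C57BL/6 mice (female, 2 months old, per the methods) were split 1:3 at each passage and sampled at passages P1, P3, P5 and P7, with 4 RNA-seq libraries at each passage and 13 ATAC-seq samples in all, 4 at P1 and 3 at each later passage. In the other 28 libraries a transcription factor was raised or lowered with lentiviral vectors in C57BL/6 skin fibroblasts. E2f4 was overexpressed from a doxycycline-induced E2f4-P2A-EGFP vector in pre-senescent P4 cells (E2f4 OE, 2 libraries), with cells carrying the EGFP vector as the control (2 libraries). Short hairpins with puromycin selection were directed against E2f4 in proliferating P3 cells (sh1, 3 libraries), Tead1 (sh3 and sh4, 3 libraries each) and Atf3 in pre-senescent cells (sh5 and sh6, 3 libraries each), and each of these experiments had 3 libraries of a non-targeting hairpin (nt). For the interventions the methods name fibroblasts of both newborn and 2-month-old mice without saying which cells gave which library, they name P2 and P3 cells as proliferating cells and P6 cells for senescence interventions without saying which of these gave the Tead1 libraries, and the 2 hairpins of a gene were compared with the same nt libraries. The labels do not say whether replicates came from separate animals or cultures, so p-values measure only the spread between these libraries.

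Library totals lay between 9147324 and 27552949 counts, and the tests had between 12310 and 13442 genes. Levels are in CPM, counts per 1e6 counts of a library scaled by TMM. A gene is said to have risen or fallen when the adjusted p of edgeR's quasi-likelihood test, with Benjamini-Hochberg adjustment over all genes tested, was under 0.05. E2f4 was at 1118 and 1180 CPM in E2f4 OE against 35.5 and 47.5 in its control, and at 20.4 to 21.8 CPM with sh1 against 59.6 to 60.8 with nt. Tead1 fell with both hairpins (log2 fold change -0.96 with sh3 and -0.78 with sh4). Atf3 was at only 2.77 to 3.31 CPM in its nt libraries, and it fell with sh5 (-1.14, adjusted p = 0.0447) but did not pass the test with sh6 (-0.79, adjusted p = 0.114). The library of Atf3 sh5 replicate 3, which held the least Atf3 (0.451 CPM, against 1.46 and 2.10 in the other sh5 libraries), stood apart from them. Without it Atf3 passed with both hairpins (-0.71, adjusted p = 0.0393, with sh5 and -0.78, adjusted p = 0.00864, with sh6, by edgeR), and the counts of changed genes among the 32 without it follow with the Atf3 results.

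p53 is a transcription factor that is kept scarce in unstressed cells by Mdm2, a ubiquitin ligase that marks it for degradation, and by Mdm4, a relative of Mdm2 that covers its activation domain. DNA damage, shortened telomeres and oncogene signalling release p53, which then binds paired decamers in DNA and activates genes that halt the cell cycle, prepare cells for apoptosis, repair DNA or adjust metabolism. Mdm2 is itself a p53 target, which closes a feedback loop. In senescent cells the arrest is carried mainly by Cdkn1a (p21) downstream of p53 and by Cdkn2a (p16 and p19Arf) upstream of the retinoblastoma protein and of Mdm2.

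The sequence that p53 binds is a pair of decamers, each with a fixed C and a fixed G around a core of A or T, and the pattern reads the same on both strands. ATAC-seq peak regions, taken as 100 bases on each side of a summit, were searched for 20 bases that matched this pattern with at most 2 mismatches and no spacer. Such elements lay in peak regions of 9 of the 32 genes, within the gene or 5000 bases beyond it (28.1%, against 753 of 13425 tested genes or 5.61%), and in 9 of 298 peak regions at these genes (3.02%, against 0.442% of 295255 regions). The 6 sequences shown are those whose accessibility is described below: the only exact match (Zmat3), an element that gained a peak (Trp53inp1), a tandem pair (Mdm4) and the 3 elements nearest to a transcription start site (Ccng1, Bax and Plk2). Each is read 5′ to 3′ on the plus strand of GRCm38 (the assembly of mm10), and capitals mark the C and the G that the pattern fixes in each decamer.
Zmat3, chr3:32364331-32364350: agaCatGcctgggCttGttt
Trp53inp1, chr4:11176357-11176376: ggtCatGcccgggCctGttc
Mdm4, chr1:133020295-133020314: agaCaaGgccagaCaaGccc
Ccng1, chr11:40754936-40754955: agaCtaGcccgggCttGcgt
Bax, chr7:45466574-45466593: cgaCaaGcccgggCctGccc
Plk2, chr13:110394394-110394413: gatCttGcttagaCttGttg
The elements of Zmat3, Mdm4, Ccng1 and Bax were intronic, at 1325, 5112, 341 and 315 bases from the nearest start site. A further Mdm4 element overlaps the one shown, and starts at 133020305. The Trp53inp1 element lay downstream of the gene and that of Plk2 641 bases upstream of its start. The other elements were at Mdm2, Eda2r and Sesn1. A match is a description of these letters and not a bound site.

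Across the whole course, P7 against P1, 23 of the 32 genes rose, 6 fell and 3 did not pass the test, beside 30.5% of the 13442 genes tested that rose and 31.9% that fell. Changes over 2-fold (log2 fold change over 1 with an adjusted p under 0.05) were seen upward in 8 of the 32 and downward in 1, beside 8.1% and 13.3% of all genes. The median log2 fold change of the 32 genes was 0.57 and that of all genes tested -0.01. Per kilobase of exon, the levels at P1 ran from 0.213 CPM per kb for Ptprv to 60.1 for Trp53, 75.5 for Phlda3, 90.6 for Ccng1 and 164 for Bax. By role, 6 of 6 growth arrest genes, 4 of 4 repair genes and 7 of 9 intracellular apoptosis genes rose, while 2 of the 3 genes of p53 and its regulators fell. Without each library of P1 and P7 in turn the count of changed genes lay between 28 and 30, and the call that was lost was that of Bax. Its log2 fold change of 0.32 (adjusted p = 0.0435) no longer passed without any 1 of the P1 libraries or without P7 replicate 1 or 2, with adjusted p between 0.0548 and 0.172.

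**Figure D1:**
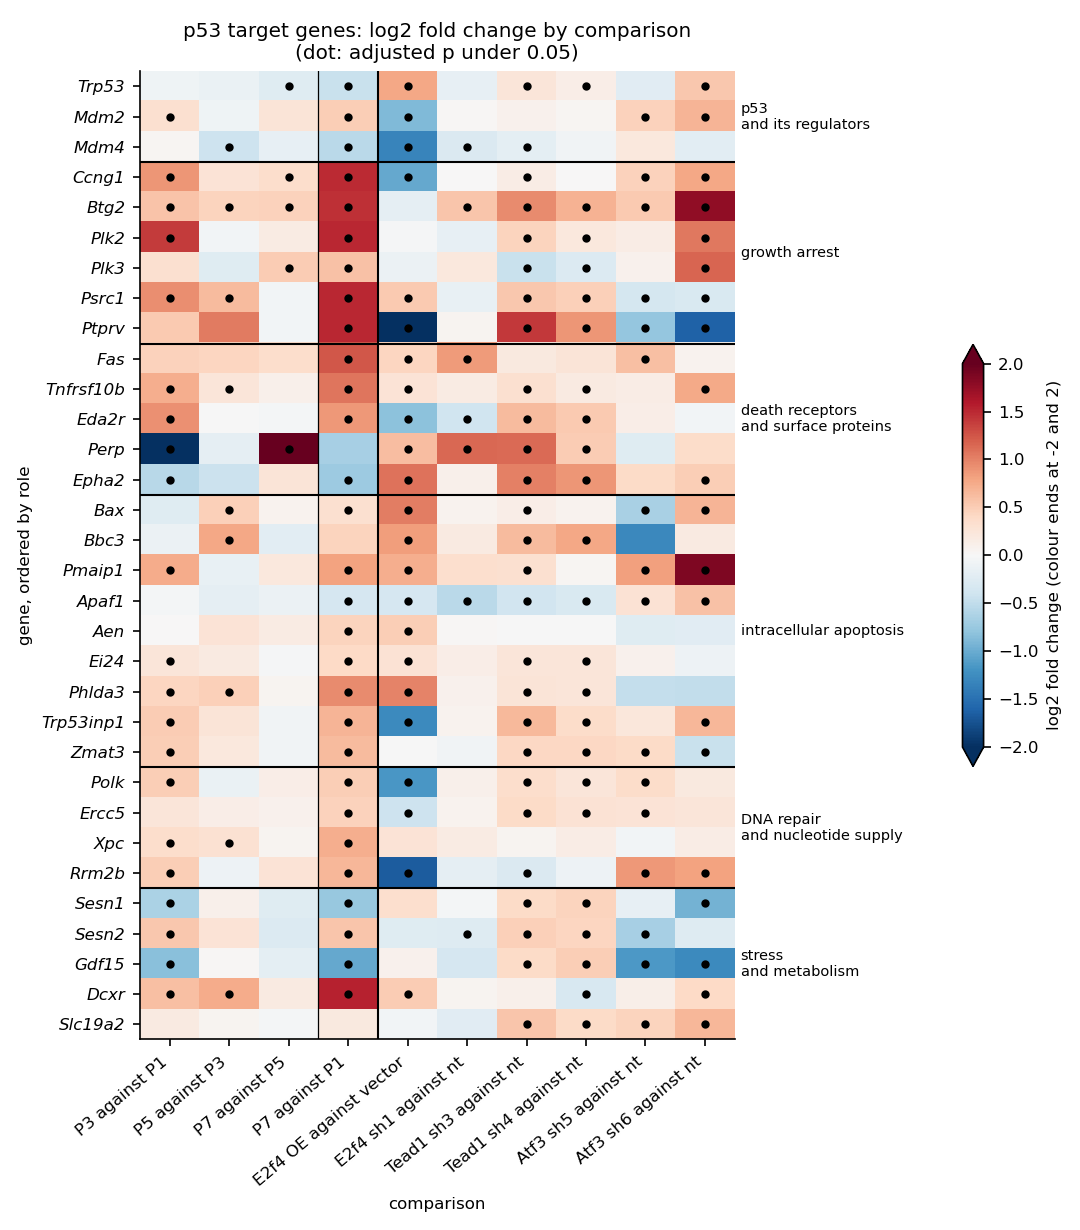
Log2 fold change of each of the 32 genes (rows, ordered by role) in 4 comparisons of passages and 6 of interventions (columns), with red for higher, blue for lower and a dot for an adjusted p under 0.05 from edgeR. The column of P7 against P1 holds 23 upward and 6 downward dots, and the column of Tead1 sh3 holds 23 and 4.

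The Trp53 transcript itself went down. It was at 138, 139, 139 and 135 CPM at P1, 129, 129, 134 and 128 at P3, 128, 106, 123 and 120.5 at P5 and 98.4, 112, 97.0 and 96.2 at P7. The P7 libraries were all below the P1 libraries (log2 fold change -0.45 ± 0.07 (SE), adjusted p = 3.19e-05), and the mean fell at every step. Mdm2 moved the other way, from 144, 161, 147 and 156 CPM at P1 and 164, 199.7, 179 and 213 at P3 to 186, 199, 162 and 166 at P5 and 197, 209, 219.5 and 228 at P7 (log2 fold change 0.49 ± 0.09 (SE), adjusted p = 0.000105). All P3 and all P7 libraries exceeded the P1 libraries. Mdm4 had 95.3, 95.8, 98.4 and 91.2 CPM at P1, 90.0, 96.4, 108 and 97.1 at P3, 72.9, 92.7, 65.9 and 62.4 at P5 and 61.9, 47.1, 78.8 and 73.7 at P7. It was level up to P3 and lower in all P7 libraries than in any P1 library (log2 fold change -0.54 ± 0.13 (SE), adjusted p = 0.00161). The inhibitor that is a p53 target had thus risen while its relative Mdm4 and Trp53 had fallen.

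The 6 growth arrest genes had the largest median of any role at P7 against P1, a log2 fold change of 1.5. Ccng1 encodes cyclin G1, a partner of a protein phosphatase that acts on Mdm2. Its level was 294, 334, 288 and 356 CPM at P1, 504, 636, 519 and 676 at P3, 706, 804, 629.7 and 669 at P5 and 913, 762, 979.5 and 930.3 at P7 (log2 fold change 1.49 ± 0.11 (SE), adjusted p = 1.08e-09). Per kilobase of exon it became the highest of the 32 genes, with 255 CPM per kb at P7 against 205 for Bax. Btg2, an antiproliferative protein that recruits the deadenylase complex to mRNAs, rose at each of the 3 steps, from 27.9, 30.9, 29.7 and 29.8 CPM at P1 through 45.5, 44.2, 43.8 and 42.0 at P3 and 50.4, 52.5, 71.4 and 63.5 at P5 to 97.7, 89.1, 72.1 and 67.6 at P7 (log2 fold change 1.47 ± 0.12 (SE), adjusted p = 3.21e-09). With the counts as deposited it was the only gene of the 32 that passed the test at every step, and with the trend on exon GC content removed Ccng1 also did (0.74, 0.59 and 0.38).

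Plk2, a polo-like kinase, reached its P7 level by P3. Its libraries held 73.9, 83.6, 65.1 and 87.0 CPM at P1, 191, 203, 198 and 219.7 at P3, 213, 201, 199.7 and 169.7 at P5 and 214, 244, 204 and 216 at P7. The step from P1 to P3 had a log2 fold change of 1.39 ± 0.10 (SE), and the later steps of -0.05 and 0.16 did not pass. Psrc1, a protein of spindle microtubules, rose up to P5 and not beyond, with 17.3, 17.4, 14.6 and 20.1 CPM at P1, 34.4, 36.3, 30.3 and 32 at P3, 50.5, 47.9, 47.4 and 59.8 at P5 and 50.9, 50.5, 47.6 and 49.1 at P7 (log2 fold change 1.51 ± 0.10 (SE), adjusted p = 2.6e-10). Ptprv, a receptor-type phosphatase, was scarce throughout. It was at 0.89, 1.22, 0.478 and 2.60 CPM at P1, 1.64, 1.72, 1.23 and 3.07 at P3, 1.61, 3.32, 3.04 and 7.61 at P5 and 4.12, 3.32, 3.15 and 4.45 at P7 (log2 fold change 1.51 ± 0.45 (SE), adjusted p = 0.00652), and the P5 libraries spanned the range of P7. Plk3 was the smallest of the group, with a log2 fold change of 0.58 ± 0.16 (SE).

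**Figure D2:**
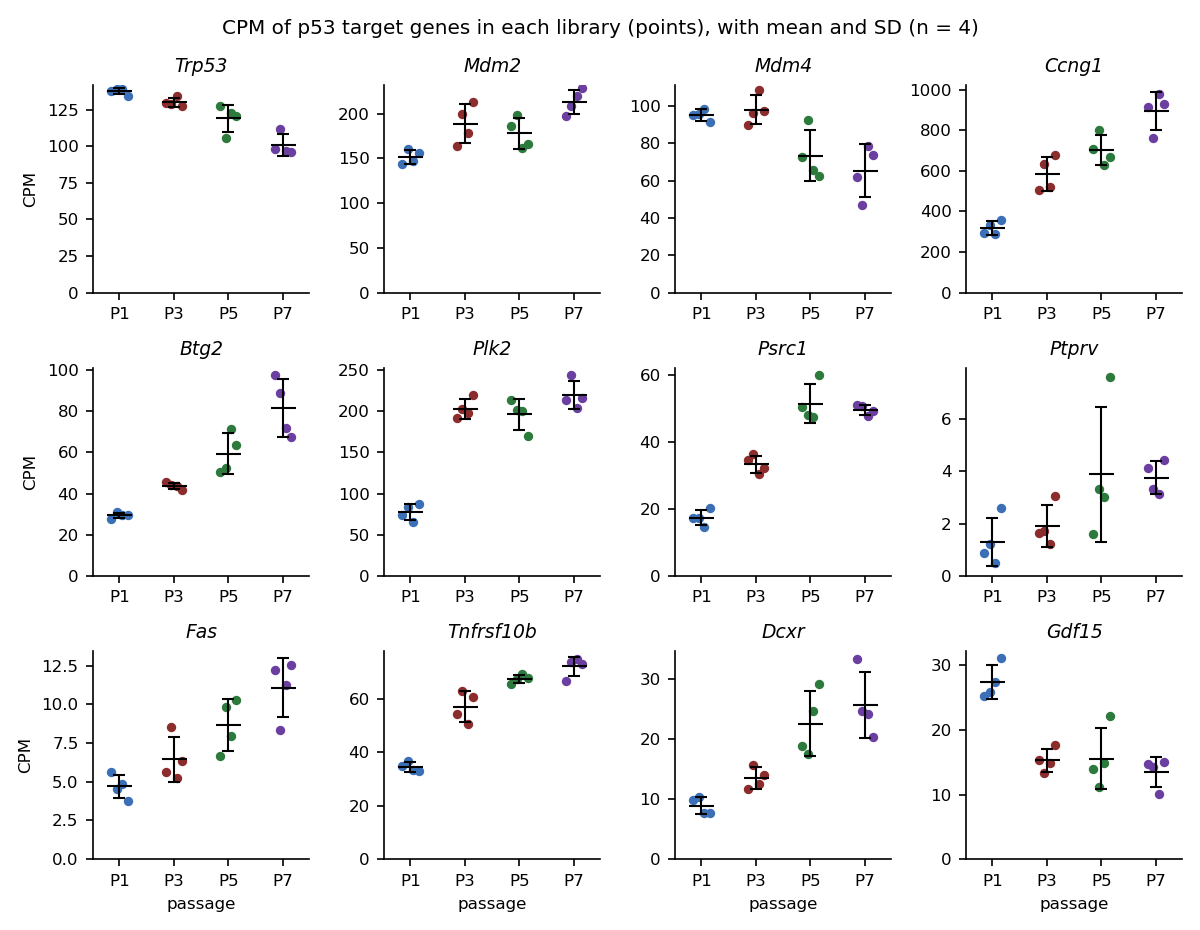
CPM (vertical axis, linear from 0) of 12 genes in each RNA-seq library at P1, P3, P5 and P7 (points), with the mean and SD of 4 libraries as bars. Ccng1, Btg2, Tnfrsf10b and Dcxr climb through the passages, Plk2 steps up once between P1 and P3, and Trp53 and Mdm4 decline.

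Among the death receptors and surface proteins, Fas, the receptor of Fas ligand, had 5.62, 4.55, 4.85 and 3.77 CPM at P1, 5.65, 8.51, 5.22 and 6.36 at P3, 6.66, 9.82, 7.95 and 10.3 at P5 and 12.2, 8.33, 11.2 and 12.5 at P7. The P7 libraries were all above P1 (log2 fold change 1.24 ± 0.19 (SE), adjusted p = 1.31e-05) although no single step passed. Tnfrsf10b, a receptor of TRAIL, had 34.9, 36.8, 33.4 and 32.9 CPM at P1, 54.4, 63.0, 50.5 and 60.8 at P3, 65.5, 67.6, 69.3 and 67.7 at P5 and 66.8, 73.9, 74.9 and 73.0 at P7 (log2 fold change 1.07 ± 0.08 (SE), adjusted p = 1.24e-09). Eda2r, the receptor of ectodysplasin A2, rose between P1 and P3 (0.92 ± 0.14) and then stayed, with differences of -0.02 and -0.04 at the later steps that did not pass. Epha2, an ephrin receptor kinase, was lower at P7 (-0.73 ± 0.20).

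Perp, a protein of desmosomes that is abundant in stratified epithelia, followed a course of its own. Its libraries held 5.89, 5.44, 17.2 and 5.26 CPM at P1, 1.91, 1.30, 0.451 and 1.46 at P3, 0.84, 1.38, 0.646 and 1.66 at P5 and 5.27, 6.17, 4.46 and 5.27 at P7. It fell from P1 to P3 (log2 fold change -2.71 ± 0.41), rose from P5 to P7 (2.22 ± 0.42) and did not pass at P7 against P1 (-0.67, adjusted p = 0.102). P1 replicate 3, which held the highest Perp level, also had the highest summed level of 9 keratinocyte markers, with 376 CPM against 58.3 to 106 in the other P1 libraries. Without it the log2 fold change to P3 was -2.11. The markers summed to 2.19 to 4.01 CPM at P3 and 5.65 to 8.68 at P7, with 1 of the 9 at 0 in every P1 library, and their part in the Perp result was not tested.

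The 9 genes of intracellular apoptosis moved by less than 2-fold. Phlda3, which restrains Akt, was the largest riser (0.95 ± 0.14), followed by the BH3-only gene Pmaip1, or Noxa (0.81 ± 0.15), Trp53inp1 (0.69 ± 0.16) and Zmat3, a zinc finger protein that binds RNA (0.64 ± 0.08). Aen, a nuclease of apoptotic nuclei, and Ei24, a protein of the endoplasmic reticulum, rose by 0.45 and 0.40. Bax, the pore-forming effector, was at 155, 151, 142 and 157 CPM at P1, 152, 117, 125 and 120.5 at P3, 152, 141, 213 and 212 at P5 and 230.5, 194, 166 and 165 at P7. The libraries were below all of P1 in 3 of 4 cases at P3 and above all of P1 in 2 of 4 P5 libraries and in every P7 library. Bbc3, or Puma, the BH3-only gene beside Pmaip1, did not pass (0.44, adjusted p = 0.0515), and Apaf1, the scaffold of the apoptosome, fell (-0.33 ± 0.10).

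All 4 genes of DNA repair and nucleotide supply rose at P7 against P1. Xpc, which recognises damage in nucleotide excision repair, had a log2 fold change of 0.72 ± 0.12, and Ercc5, an endonuclease of the same pathway, of 0.47 ± 0.10. Rrm2b, the p53-induced small subunit of ribonucleotide reductase, had 0.66 ± 0.18, and Polk, a polymerase that copies past lesions, had 0.49 ± 0.13. In both of these last genes a P7 library lay within the range of P1.

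Within stress and metabolism the directions were mixed. Dcxr, a reductase of dicarbonyls and xylulose, rose most, from 9.86, 10.3, 7.66 and 7.67 CPM at P1 and 11.6, 15.8, 12.5 and 14.0 at P3 to 18.9, 17.6, 24.7 and 29.3 at P5 and 33.4, 24.8, 24.3 and 20.3 at P7 (log2 fold change 1.53 ± 0.18 (SE), adjusted p = 4.13e-07). Gdf15, a secreted stress cytokine, was the only gene of the 32 that fell over 2-fold. It was at 25.3, 25.9, 27.4 and 31.2 CPM at P1, 15.4, 13.4, 14.9 and 17.6 at P3, 14.0, 11.2, 14.9 and 22.2 at P5 and 14.7, 14.3, 10.1 and 15.1 at P7 (log2 fold change -1.02 ± 0.17 (SE), adjusted p = 3.11e-05), and every P1 library lay above every later one. The sestrins, which restrain growth signalling through mTORC1, went opposite ways, with Sesn2 higher (0.56 ± 0.11) and Sesn1 lower (-0.76 ± 0.11). Slc19a2, a thiamine transporter, did not pass (0.20).

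Step by step, 17 of the 32 genes rose and 4 fell from P1 to P3, beside 16% and 17.5% of all genes tested. From P3 to P5, 8 rose and 1 fell, beside 13.4% and 15.3%. The changes of that step moved with the GC content of exons (Spearman correlation 0.42 over the 32 genes and 0.43 over 13425 genes that share the libraries). With that trend removed, an alternative chosen after seeing the data, 11 rose and 2 fell from P3 to P5, beside 11.2% and 13.4% of all genes, and Mdm4 (-0.21), Phlda3 (0.15) and Xpc (0.21) no longer passed. From P5 to P7, 4 rose and 1 fell, beside 7.67% and 9.1%. The early step was therefore where most of the genes passed. Of the 23 genes that rose over the whole course, 17 had their largest step from P1 to P3, 5 from P3 to P5 and 1, Plk3, from P5 to P7. This split was not made over all genes, and the first step also had the most calls over all genes. The mean rose at every step in 9 of the 32 genes (28.1%, beside 16.2% of all genes) and fell at every step in 2 of them, Trp53 and Apaf1 (6.25%, beside 16.8%).

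The later steps rested on single libraries more than the first. The count of changed genes from P3 to P5 was 9, and 5 without P3 replicate 3 or without P5 replicate 4. From P5 to P7 it was 5, and 3 without P5 replicate 1, 3 or 4 or P7 replicate 4, and 2 without P7 replicate 3. Btg2 and Perp were the genes that passed from P5 to P7 in each of the 8 fits that left out a library. Trp53 passed that step with all libraries (-0.24, adjusted p = 0.0314) and did not without P5 replicate 1 or 3 or P7 replicate 1, 3 or 4 (adjusted p 0.0523 to 0.104). Ccng1 lost its call without replicate 1, 3 or 4 of either passage (adjusted p 0.0585 to 0.0976), and Plk3 without P5 replicate 2 or 4 or P7 replicate 2 or 3 (0.0562 to 0.136).

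The P1 libraries also held transcripts of other cell types. Summed over 10 markers each, macrophage markers were at 308 to 485 CPM at P1, 35.9 to 55.1 at P3 and 13.4 to 35.2 at P7, endothelial markers at 190 to 212, 49.7 to 61.8 and 12.4 to 16, and muscle markers at 179 to 284, 59.6 to 66.6 and 43 to 113. The 10 fibroblast markers, none of them at 0, were at 22100 to 25100 CPM at P1 and 37400 to 40300 at P7, and 6 of them rose and 4 fell at P7 against P1. In bulk samples fewer cells of a type and less RNA per cell cannot be told apart, and the part of these markers in the changes from P1 was not tested.

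With P3 in place of P1 as the baseline, a comparison chosen after seeing the data, 12 of the 32 genes rose, 3 fell and 17 did not pass, beside 24.8% and 26.5% of all genes. The median log2 fold change was 0.18. Btg2 (0.89), Dcxr (0.93), Fas (0.78), Ccng1 (0.62), Psrc1 (0.57), Bax (0.56), Bbc3 (0.56), Phlda3 (0.52), Aen (0.43), Xpc (0.37) and Tnfrsf10b (0.34) rose, together with Perp (2.05), the only change over 2-fold. Trp53 (-0.37), Mdm4 (-0.58) and Apaf1 (-0.30) fell. Among those that did not pass were Plk2 (0.11), Mdm2 (0.18), Pmaip1 (0.06), Gdf15 (-0.18), Ptprv (0.98), Epha2 (-0.17) and the repair genes Polk (-0.00), Ercc5 (0.22) and Rrm2b (0.17).

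Cdkn1a, the p53 target left out of the list, had a log2 fold change of 1.53 ± 0.11 (SE) at P7 against P1, next to 1.51 for Psrc1 and 1.49 for Ccng1. Among 45 tested genes of a wider list of p53 pathway genes, 14 rose, 17 fell and 14 did not pass, with a median of 0.02, beside the 30.5% and 31.9% of all genes. Upward changes over 2-fold included those of Cdkn2a (4.79), Cdkn1a, Thbs1 (1.40), which encodes a secreted protein of the matrix, and Rprm (1.73). Rprm was scarce, at 0.206 to 0.410 CPM at P1 and 0.840, 1.70, 0.307 and 1.63 at P7, and the groups overlapped. Downward changes over 2-fold were seen in Atm (-1.24) and Chek1 (-2.65), kinases that signal DNA damage to p53, and the deacetylase Sirt1 (-1.33). Ckap2 (-1.57), Steap3 (-1.34) and the epithelial genes Sfn (-1.78) and Trp63 (-3.82) also fell over 2-fold.

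ATAC-seq reads open chromatin. The files give peaks called by MACS2 in each sample, without read counts, so a peak's strength was expressed as the percentile of its -log10 p among the peaks of its sample. Within 1000 bases of a start site, 31 of the 32 genes had a peak in all 13 samples (96.9%, against 91.4% of 13425 tested genes), and the exception was Perp. At P7 the promoter peaks of 3 genes were higher in percentile than in every P1 sample, beside 13.1% of all genes, and those of 7 genes were lower, beside 31.9%. The higher ones were Btg2 (95 ± 0.73 at P1, n = 4, and 97.2 ± 0.27 at P7, n = 3), Sesn2 (95.6 ± 1.34 and 98.0 ± 1.06) and Dcxr (95.7 ± 0.80 and 98.3 ± 0.37). The lower ones were Mdm2 (86.0 ± 1.55 and 75.5 ± 9.43), Zmat3 (69.0 ± 4.58 and 47.6 ± 14.0), Ei24 (91.6 ± 1.72 and 78.8 ± 4.71), Apaf1, Sesn1, Trp53inp1 and Ccng1. Each has a two-sided exact permutation p of 0.0286, the smallest that 4 samples against 3 allow, before any adjustment over the 32 genes.

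These promoter directions depended on the measure. With fold enrichment at the summit in place of the percentile, 8 promoters were higher at P7 and 1 was lower, beside 32.3% and 6.57% of all genes. Of the 7 genes with lower promoter peaks in percentile, Mdm2, Zmat3, Ei24, Trp53inp1 and Ccng1 had risen in RNA between P1 and P7. Over all 32 genes, 23 had risen.

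A percentile is a rank within the peak list of 1 sample, so the peaks over the printed elements are described by percentile and by fold enrichment, the latter chosen after seeing the data, and with no test. The exact element of Zmat3 had a peak in every sample, at the percentiles 73.1, 55.9, 64.6 and 67.3 at P1, 53, 70.3 and 70.2 at P3, 85.1, 81.9 and 61.8 at P5, and 79.1, 76.3 and 76.8 at P7. All P7 samples were above all P1 samples, and so they were in fold enrichment (3.75 to 5.27 at P1 and 7.23 to 7.54 at P7). At the same gene the promoter peak was lower in percentile. The Trp53inp1 element had no peak in any of the 7 samples of P1 and P3 and a peak in all 6 of P5 and P7, at 55.7, 61.9 and 42.2 and at 46.6, 62.4 and 71.3, with a fold enrichment of 5.28 to 10.2 at P7. The tandem Mdm4 elements lay under 1 peak, at 49.2 to 71.2 at P1, 52.2 to 61.4 at P3, 71.4 to 85.3 at P5 and 68.9 to 83.4 at P7, where P1 and P7 overlapped in percentile and in fold enrichment (4.86 to 7.75 and 6.93 to 10.5).

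The Ccng1 element sat in one of the strongest peaks of each sample, at the percentiles 99.9 to 100 at P1 and 99.3 to 99.8 at P7, which left no room for a rise, and its fold enrichment was 19.0 to 21.1 and 18.2 to 23.4. This peak, like those over the Plk2 and Bax elements, was also the promoter peak of its gene. The Plk2 element was at 92.9 to 96.8 at P1 and 87.8 to 93.4 at P7, and that of Bax at 65.9 to 72.9 and 59.8 to 74.6. For Plk2 and Bax the samples of P1 and P7 overlapped by both measures.

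**Figure D3:**
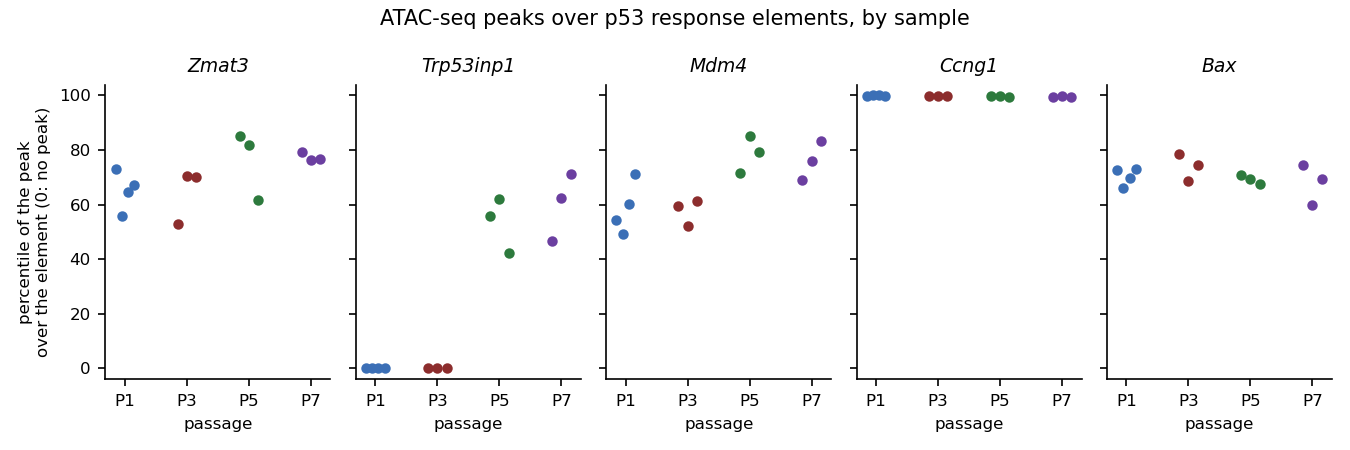
Percentile of the ATAC-seq peak over a p53 element among the peaks of its sample (vertical axis, 0 where there was no peak) for 5 genes, with 1 point per sample at P1, P3, P5 and P7. The Trp53inp1 element has a peak at P5 and P7 only, and the Ccng1 element stays above 99 in every sample.

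Over the genome, peak regions held 1359 such elements, overlapping ones counted each. Of the peaks over them, 28.5% were higher in percentile in every P7 sample than in any P1 sample and 10% were lower. By fold enrichment the shares were 34.5% and 4.56%. In the 293949 regions without an element they were 24.1% and 13.5%, in percentile. Of the 10 elements at the 32 genes, 2 were higher (Zmat3 and Trp53inp1) and 1 was lower (Ccng1) in percentile. By fold enrichment 2 were higher and 0 lower. Those at Mdm2, Eda2r and Sesn1 overlapped between P1 and P7 by both measures. Among regions with a peak in every sample the shares were 32% and 14.2% of 466 with an element and 26.0% and 17.1% of 122489 without. In promoter windows of RefSeq, from 250 bases before to 50 after a start site, a single exact decamer was found in 28.1% of 32 windows of 24 matched genes and in 8.36% of 32851 windows of all genes, and a full element in 3.12% of the former, at Ccng1, and 0.326% of the latter.

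In E2f4 OE, 13 of the 32 genes rose, 10 fell and 9 did not pass, beside 28.9% and 28.2% of 13199 genes tested. E2F4 is a member of the E2F family that mostly represses cell cycle genes with the pocket proteins. Changes over 2-fold were upward in 2 genes and downward in 6, beside 7.69% and 10.4% of all genes. The median was 0.04, and the roles differed in direction, with 4 of 5 death receptors and surface proteins and 6 of 9 intracellular apoptosis genes higher and 3 of 4 repair genes lower. Of the 6 apoptosis genes, Bbc3, Ei24 and Phlda3 no longer passed with the GC trend removed, as given below. With DESeq2 in place of edgeR, the rises of Fas (adjusted p = 0.0903), Tnfrsf10b (0.0772) and Ei24 (0.0698) did not pass. Trp53 was at 179 and 186 CPM against 104 and 110.5 in the control (log2 fold change 0.77 ± 0.10 (SE), adjusted p = 0.000152), whereas Mdm2 was at 165 and 153 against 300.3 and 285 (log2 fold change -0.88 ± 0.10 (SE), adjusted p = 6.79e-05) and Mdm4 at 59.4 and 51.4 against 148 and 129 (log2 fold change -1.32 ± 0.12 (SE), adjusted p = 2.05e-05). p53's own transcript was higher and both inhibitors were lower, in both libraries.

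The genes that fell over 2-fold included Ptprv, at 0.80 and 0.526 CPM against 3.32 and 2.71 (log2 fold change -2.15 ± 0.34 (SE), adjusted p = 0.000391). Ccng1 was at 467 and 396 against 905 and 841 (log2 fold change -1.02 ± 0.11 (SE), adjusted p = 4.25e-05) and Trp53inp1 at 107 and 85.7 against 259 and 206 (log2 fold change -1.27 ± 0.14 (SE), adjusted p = 5.45e-05). The repair genes Rrm2b and Polk were at 9.31 and 6.98 and at 35.9 and 30.2 CPM, against 28.2 and 23.4 and 83.3 and 64.7 (log2 fold changes -1.66 ± 0.17 and -1.16 ± 0.15). The upward changes over 2-fold were those of Epha2, at 146 and 164 against 72.1 and 74.2 (log2 fold change 1.08 ± 0.11 (SE), adjusted p = 3.1e-05), and Bax, at 129.9 and 152 against 60.7 and 77.9 (log2 fold change 1.03 ± 0.14 (SE), adjusted p = 0.00015). No control library overlapped an OE library in any of these genes. As they were selected by the test on the same libraries, 2 in each group, this describes them and adds no support. Without control replicate 1 the count over 2-fold was 5.

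Length and base composition moved with this result. The log2 fold changes of the 32 genes had a Spearman correlation of 0.53 with the GC content of their exons and of -0.68 with exon length, beside 0.56 and -0.24 over 13178 genes tested that share the same 4 libraries. The share of reads outside annotated genes was 5.64 to 6.01% in OE and 10.8 to 11.5% in the control. Muscle markers summed to 23.4 to 24.3 CPM in OE and 68.3 to 77.7 in the control, where 1 of the 3 tested fell, and their part in the result was not tested. With the trend on GC content removed from each library, an alternative chosen after seeing the data, 10 of the 32 genes rose and 11 fell, beside 26.4% and 25.5% of all genes, and 2 changed over 2-fold, Ptprv (-2.62) and Pmaip1 (1.37). Trp53 (0.50), Bax (0.52) and Epha2 (0.64) were still higher, each past the test. Mdm2 (-0.46), Mdm4 (-0.83), Rrm2b (-0.89), Polk (-0.56), Trp53inp1 (-0.33) and Ccng1 (-0.28) were still lower, also past the test. No fit removed a trend on exon length, and the part of length in these calls was not tested. Eda2r turned from -0.81 to 0.08 and no longer passed. Bbc3 (0.08), Ei24 (0.20), Phlda3 (0.19), Apaf1 (-0.07) and Dcxr (0.23) also lost their calls. Sesn1 (0.54) rose and Plk3 (-0.67), Sesn2 (-0.83) and Gdf15 (-0.58) fell only with the trend removed.

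**Figure D4:**
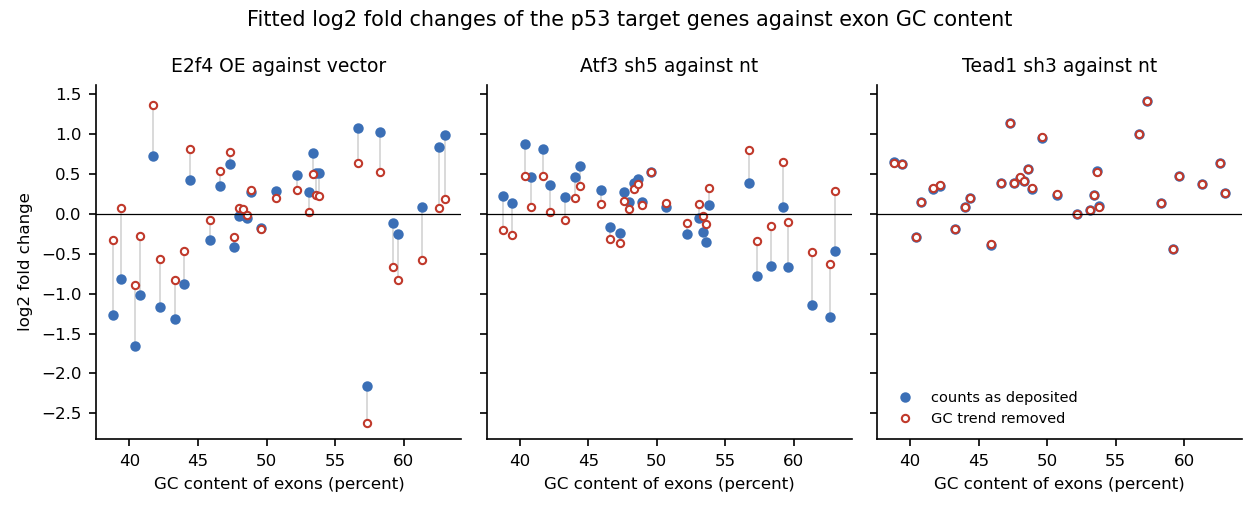
Log2 fold change (vertical axis) of the 32 genes against the GC content of their exons in percent (horizontal axis) in 3 comparisons, as fitted to the counts (filled points) and with the GC trend of each library removed (open points), joined by a line for each gene. The filled points slope upward in E2f4 OE and downward in Atf3 sh5, and in Tead1 sh3 the fits nearly coincide.

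Knockdown of E2f4 with sh1 changed few of the genes. Of the 32, 3 rose, 4 fell and 25 did not pass, beside 10% and 7.79% of 12310 genes tested. Perp was the only one changed over 2-fold, beside 1.46% of all genes up and 0.211% down. It was at 6.22, 6.90 and 7.22 CPM with sh1 and 2.91, 3.54 and 2.71 with nt (log2 fold change 1.15 ± 0.22 (SE), adjusted p = 0.00245). Fas (0.86 ± 0.15) and Btg2 (0.56 ± 0.09) also rose, and all 3 genes had no overlap between the groups. These 3 were selected by the test on the same libraries, so the lack of overlap adds no support. Apaf1 (-0.54 ± 0.08), Eda2r (-0.39 ± 0.09), Mdm4 (-0.29 ± 0.06) and Sesn2 (-0.26 ± 0.07) fell. The call of Sesn2 was lost without sh1 replicate 2 or nt replicate 1, 2 or 3 (adjusted p 0.0592 to 0.132), and that of Eda2r without nt replicate 3 (0.055). Trp53 was at 122, 113 and 137 CPM against 136, 147 and 132 (adjusted p = 0.17) and Mdm2 at 214, 230.0 and 189.5 against 203, 212 and 211 (adjusted p = 0.891), and the libraries of both overlapped. Mdm4 was at 106, 100.2 and 100 against 125, 124 and 127.

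Knockdown of Tead1, a partner of the Hippo pathway coactivators YAP and TAZ, was followed by small rises in most of the 32 genes. With sh3, 23 rose, 4 fell and 5 did not pass, beside 17.6% and 17.7% of 13012 genes tested. With sh4, 20 rose, 3 fell and 9 did not pass, beside 14.4% and 14.7%. The medians were 0.34 and 0.25, and those of all genes 0.00. Changes over 2-fold were limited to 3 rises with sh3, beside 1.99% of genes up and 0.722% down, and none with sh4, beside 1.01% and 0.523%. The 2 hairpins share their nt libraries, and per the study's supplement their target sequences overlap in all but their end bases. Their values are therefore given side by side and are not independent, and a gene that passed with both does not separate an effect of Tead1 loss from an off-target effect of that sequence.

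The genes over 2-fold with sh3 were Ptprv, Perp and Epha2. Ptprv was at 8.61, 10.2 and 7.78 CPM with sh3, 5.46, 5.56 and 7.33 with sh4 and 3.00, 3.12 and 3.77 with nt (log2 fold changes 1.42 ± 0.17 and 0.88 ± 0.17). Perp was at 8.66, 10.8 and 8.06, 4.79, 6.71 and 6.41 and 4.39, 4.37 and 3.77 (1.14 ± 0.16 and 0.52 ± 0.17), and Epha2 at 49.1, 58.5 and 51.8, 51.7, 43.6 and 50.6 and 27.0, 24.9 and 27.6 (1.00 ± 0.07 and 0.88 ± 0.07). In these 3 genes every knockdown library exceeded every nt library. They were selected by the test on sh3 and the same nt libraries, so this describes them and adds no support. Without sh4 replicate 2 the Perp call of sh4 was lost (adjusted p = 0.0978), and also without sh4 replicate 3 (0.0759) or nt replicate 3 (0.0897).

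Btg2 came next (0.95 ± 0.06 with sh3 and 0.69 ± 0.06 with sh4), followed by Bbc3 (0.64 and 0.78), Trp53inp1 (0.65 and 0.37), Eda2r (0.63 and 0.52), Slc19a2 (0.56 and 0.39) and Psrc1 (0.53 and 0.47). Each of these passed with both hairpins. The falls were those of Plk3 (-0.44 and -0.27) and Apaf1 (-0.39 and -0.31) with both, Mdm4 and Rrm2b with sh3, and Dcxr with sh4. The call of Plk3 with sh4 was lost without sh4 replicate 1 (adjusted p = 0.064), that of Dcxr without sh4 replicate 1 or 3 or nt replicate 1 (0.0699 to 0.109), and that of Rrm2b without sh3 replicate 1 or 3 or nt replicate 2 or 3 (0.0626 to 0.129). Trp53 was at 146, 148 and 145 CPM with sh3, 138, 135 and 135 with sh4 and 123, 123 and 125 with nt (0.24 ± 0.04 and 0.14 ± 0.04, both passed). Mdm2 was at 191, 192 and 188, 181, 182 and 188 and 184, 183 and 174, which did not pass (0.08 and 0.03), and Mdm4 at 71.0, 70.1 and 70.0, 75.2, 77.5 and 76.7 and 82.5, 78.5 and 80.5. The p53 transcript was thus slightly higher while Mdm2 did not pass.

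Between the hairpins, 0 of the 32 genes were higher with sh4 than with sh3 and 9 were lower, beside 3.34% and 4.03% of all genes. At an unadjusted p under 0.05, edgeR gave 2 higher and 11 lower, and DESeq2 also called 0 higher. The 9 were Perp (-0.62 ± 0.15), Ptprv (-0.54 ± 0.15), Dcxr (-0.42 ± 0.11), Trp53inp1 (-0.28), Pmaip1 (-0.28), Btg2 (-0.26), Plk2 (-0.24), Slc19a2 (-0.17) and Ccng1 (-0.13). The count of 9 became 4 without sh3 replicate 2 and 3 without sh4 replicate 1.

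**Figure D5:**
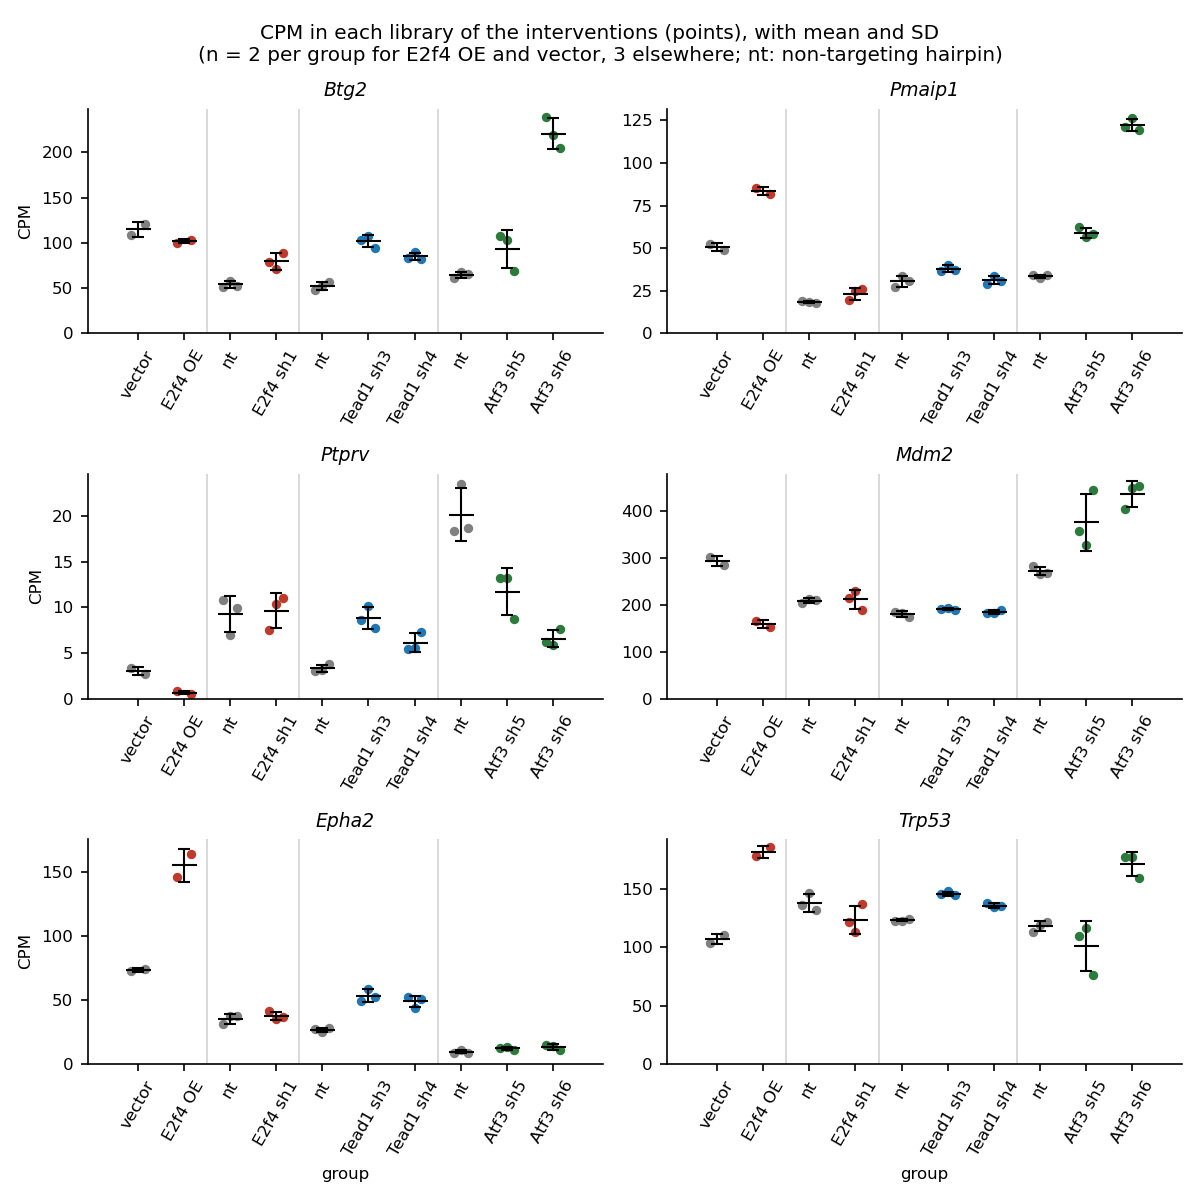
CPM (vertical axis, linear from 0) of 6 genes in each library of the interventions (points), with the mean and SD as bars (n = 2 for E2f4 OE and its vector control, n = 3 elsewhere); grey points are controls and thin lines separate the experiments. Btg2 and Pmaip1 stand highest with Atf3 sh6, and Ptprv is below its control in E2f4 OE and with both Atf3 hairpins and above it with both Tead1 hairpins.

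Atf3 is a stress-induced transcription factor of the bZIP class that pairs with AP-1 proteins. With sh5, 11 of the 32 genes rose, 5 fell and 16 did not pass, beside 17.7% and 18.1% of 13345 genes tested. With sh6, 15 rose, 5 fell and 12 did not pass, beside 23.8% and 26.0%. Over 2-fold, sh5 had 1 fall, beside 1.38% of genes up and 3.82% down, and sh6 had 4 rises and 2 falls, beside 4.83% and 10.9%. As the call on the Atf3 transcript depended on 1 library, the groups are named here by their hairpin.

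Pmaip1 was at 62.2, 56.6 and 58.1 CPM with sh5, 121, 126 and 119 with sh6 and 34.2, 32.4 and 34.0 with nt (log2 fold changes 0.81 ± 0.07 and 1.87 ± 0.07). Btg2 was at 108, 103 and 68.6, 238, 219 and 204 and 61.1, 67.8 and 65.4 (0.52 ± 0.15 and 1.77 ± 0.15). Both were higher with each hairpin, and more so with sh6, where the libraries stood above all others of the experiment (sh6 against sh5, 1.05 ± 0.07 and 1.24 ± 0.15). The Btg2 call of sh5 was lost without sh5 replicate 1 or 2 or any 1 of the nt replicates (adjusted p 0.0544 to 0.0671). The kinases Plk2 and Plk3 passed with sh6 and not with sh5, and the hairpins differed by 0.90 ± 0.09 and 1.08 ± 0.18, both past the test. Plk2 was at 167, 171 and 196, 341, 349.5 and 303 and 167, 156 and 158 (0.15 and 1.05 ± 0.09), and Plk3 at 14.5, 16.9 and 9.98, 30.3, 28.5 and 28.5 and 10.5, 14.1 and 14.3 (0.09 and 1.17 ± 0.18).

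Downward, Gdf15 was at 5.31, 7.52 and 2.99 CPM with sh5, 4.94, 4.55 and 5.05 with sh6 and 10.5, 11.8 and 12.8 with nt (-1.14 ± 0.26 and -1.27 ± 0.26), and Ptprv at 13.3, 13.2 and 8.74, 6.16, 5.87 and 7.61 and 18.3, 23.5 and 18.7 (-0.78 ± 0.18 and -1.62 ± 0.19). Every knockdown library lay below every nt library in both genes. Both were selected by the test on these libraries, so this adds no support. Among the regulators Mdm2 was at 356, 326 and 443, 403, 449 and 452 and 282, 265 and 268 (0.47 ± 0.11 and 0.68 ± 0.11) and rose with both. Trp53 was at 109.6, 117 and 76.5, 178, 178 and 160.1 and 113, 119.5 and 122, rose with sh6 (0.54 ± 0.13) and did not pass with sh5 (-0.23). Mdm4, at 131, 127 and 130.5, 89.3, 94.8 and 107 and 119, 109 and 109, did not pass with either (0.21 and -0.21). Without sh5 replicate 3 it rose with sh5 (0.23, adjusted p = 0.0234) and fell with sh6 (-0.20, adjusted p = 0.0164), and with the trend on exon GC content removed it fell with sh6 (-0.26, adjusted p = 0.00683) and not with sh5 (-0.08).

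Directly compared, 13 genes were higher with sh6 than with sh5 and 6 were lower, beside 25.9% and 26.6% of all genes. Bax and Zmat3 passed the test in opposite directions with the hairpins. Bax was at 93.5, 113 and 62.9 CPM with sh5, 249, 223 and 202 with sh6 and 126, 148 and 148 with nt, lower with sh5 (-0.65 ± 0.18) and higher with sh6 (0.68 ± 0.18), and the hairpins differed by 1.32 ± 0.18 (adjusted p = 0.000169). Zmat3 was split the other way, higher with sh5 (0.38 ± 0.07) and lower with sh6 (-0.45 ± 0.07), a difference of -0.83 ± 0.07, and it passed with both hairpins also with the GC trend removed (0.31 and -0.43), where Bax did not with sh5. The sh5 call of Bax was lost without nt replicate 2 (adjusted p = 0.0675) or nt replicate 3 (0.0643).

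Replicate 3 of sh5 bears on these values. Its share of reads outside annotated genes was 15.1%, against 10.7 to 11.1% in the other sh5 libraries and 8.4 to 8.98% in nt, and Bax and Bbc3 were lowest there. Without it, 16 genes rose and 6 fell with sh5, beside 21.1% and 20.3% of all genes, and none passed 2-fold, with Gdf15 at -0.84. With sh6, 17 rose and 9 fell, beside 32.2% and 32.2%, and sh6 against sh5 gave 15 higher and 9 lower, beside 29.5% and 30.2%. Bax remained lower with sh5 (-0.42) and higher with sh6 (0.69), and Trp53 was at -0.04 with sh5. Without nt replicate 2 the count of changed genes with sh5 was 9.

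The sh5 changes also followed base composition, with a Spearman correlation of -0.72 between log2 fold change and exon GC content over the 32 genes, beside -0.64 over 13325 tested genes from the same libraries. With that trend removed, an alternative chosen after seeing the data, 11 genes rose and 3 fell with sh5, beside 13.4% and 12.8%. Bax (-0.15), Ptprv (-0.34) and Ccng1 (0.09, adjusted p = 0.212 by edgeR) no longer passed. Psrc1 (-0.13), Apaf1 (0.12), Polk (0.03), Ercc5 (0.16) and Sesn2 (-0.1) also lost their calls. Pmaip1 (0.47), Btg2 (0.52), Mdm2 (0.20) and Gdf15 (-0.48) still passed. For sh6 the summed fibroblast markers were at 19000 to 20400 CPM against 47200 to 49000 in nt and muscle markers at 200 to 218 against 39 to 40.6. Of the 10 fibroblast markers 8 fell, and of the 5 muscle markers tested 2 rose and 2 fell, each of them over 2-fold, so the muscle markers did not move as 1 group. For sh5 the muscle markers were at 17.9 to 19.6 CPM, with 1 of the 5 tested lower, and 4 fibroblast markers were higher and 1 lower. Their part in the results of either hairpin was not tested.

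Cdkn1a passed upward with Tead1 sh3 (0.26), Tead1 sh4 (0.21) and Atf3 sh6 (0.70), and did not pass in E2f4 OE (0.09), with E2f4 sh1 (0.21) or with Atf3 sh5 (-0.17, and 0.04 without sh5 replicate 3).

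Set side by side, some genes moved one way during passaging and another under an intervention. Ptprv rose from P1 to P7, though not past the test with P3 as the baseline (0.98), and rose with both Tead1 hairpins. It fell in E2f4 OE and with both Atf3 hairpins, and the sh5 fall did not pass with the GC trend removed (-0.34). Ccng1 rose with passage (1.49), with Tead1 sh3 (0.15) and with both Atf3 hairpins (0.47 and 0.77, the first not past the test with the GC trend removed) and fell in E2f4 OE (-1.02). Btg2 rose at P7 against P1 and with each of the 5 hairpins, and did not pass in E2f4 OE (-0.17). Epha2 fell from P1 to P7 (-0.73) but did not pass with P3 as the baseline (-0.17), and it rose in E2f4 OE and with both Tead1 hairpins. The intervention experiments share no libraries with the passages or with each other, and were normalised separately.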

How the data were processed

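Conditions were taken from the sample labels, and hairpin numbers, passages and animal ages from the study's methods. Per the submitters' notes and methods, the authors used Trimmomatic 0.39 for trimming and HISAT2 2.2.1 for alignment on mm10, and deposited HTSeq 0.12.4 counts per gene, unstranded, so overlapping genes cannot be separated (5 of the 32 genes had an exon overlap, all under 10% of their exon bases). Rows without a gene were left out of library sizes (5.64 to 15.1% of reads outside genes in the 28 intervention libraries, and no such reads listed for the passage libraries). For ATAC-seq the authors aligned with Bowtie2 2.3.5.1 and called peaks per sample with MACS2, and they deposited the -log10 p, the -log10 q and the fold enrichment at each summit. These lists hold no read counts, so the ATAC-seq depth is unknown.

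Each RNA-seq experiment was fitted alone with edgeR 4.0.16 in R 4.3.3 (filterByExpr, TMM, quasi-likelihood test, Benjamini-Hochberg adjustment over all genes tested, all groups of the experiment in 1 fit). The script was tested on simulated data. A fold change is log2, with its SE. Replicates differed by more than counting noise (chi-square per degree of freedom 2.75 to 63.7 over 50 pairs), so none was merged. Genes were matched to RefSeq GRCm38.p6, with all 32 genes matched, and the elements were searched with pysam 0.24.0. Correlations over genes are descriptions, since genes share libraries and are not independent replicates. Promoter peak percentiles were compared by exact permutation over 35 splits. Values in every library were given for Trp53, Mdm2, Mdm4 and each of the 32 genes changed over 2-fold in P7 against P1 or in an intervention, in the comparison concerned. The alternatives were DESeq2 1.42.0, its size factors, no filter, at least 10 counts in every library, a fit of the groups compared alone, a block by replicate number, and each library left out. The members and lists were chosen with earlier results of these data known. The methylation data of the series were not analysed here. A gene of the wider list is not reported here.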

Additional observations from a re-analysis of the deposited data

Results flagged for a closer look

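In 5 of 128 groups of 4 libraries (3.91%) the highest or lowest value stood apart from the other 3 by Dixon's criterion, which chance meets in about 1 in 20 groups. These were Trp53 in P7 replicate 2 (112 CPM), Plk3 in P1 replicate 4 (14.9 CPM), Perp in P1 replicate 3 (17.2 CPM), Ei24 in P5 replicate 4 (128 CPM) and Gdf15 in P7 replicate 3 (10.1 CPM). P1 replicate 3 also held the most keratinocyte marker RNA of the P1 libraries, 376 CPM.

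The 2 hairpins against Atf3 differed by over 2-fold in 5 of the 32 genes, each higher with sh6 than with sh5 in edgeR's test of the difference itself. The log2 differences were 1.24 for Btg2, 1.08 for Plk3, 1.32 for Bax, 1.47 for Bbc3 and 1.05 for Pmaip1. Without sh5 replicate 3 they were 1.05 for Btg2, 0.88 for Plk3, 1.10 for Bax, 0.98 for Bbc3 and 1.02 for Pmaip1, all past the test, and the call of Bbc3 was lost without sh6 replicate 1 (adjusted p = 0.0751) or sh6 replicate 2 (0.0541).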

How the results depend on the processing

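For counts of changed genes among the 32, 160 values under the alternatives stayed within 1.5 times the count reported, and 12 did not. Those that did not were P7 against P5 with only these groups in the fit (1 against 5), P7 against P1 with P3 as the baseline (15 against 29), and values with single libraries left out. Leaving out each library gave 5 to 13 from P3 to P5, 2 to 6 from P5 to P7, 9 to 22 for Atf3 sh5 (9 without nt replicate 2, 22 without sh5 replicate 3) and 3 to 7 for Tead1 sh4 against sh3. It gave 16 to 21 from P1 to P3, 28 to 30 for P7 against P1, 18 to 24 for E2f4 OE, 5 to 9 for E2f4 sh1, 24 to 27 for Tead1 sh3, 21 to 23 for Tead1 sh4 and 17 to 26 for Atf3 sh6. For single genes, 3 called values changed sign, Eda2r (-0.05) and Polk (-0.0) with P3 as the baseline and Eda2r in E2f4 OE with the GC trend removed (0.08), and 218 no longer passed. The cause was not tested. In E2f4 OE the count over 2-fold of 8 became 5 without control replicate 1 and 2 with the GC trend removed.

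Correlations of same-numbered deviations ran from -0.477 to 0.481 and differed between comparisons. They were 0.075 to 0.481 for P1 and P3 (mean 0.249) and 0.071 to 0.33 for P1 and P7 (mean 0.216). For differently numbered libraries the means were -0.083 and -0.074. For P5 and P7 the same-numbered correlations ran from -0.477 to 0.129 (mean -0.146). The labels state no pairing, so the main fits used none, and a replicate block was an alternative. With the replicate block, 21 genes changed from P1 to P3, 11 from P3 to P5, 5 from P5 to P7, 29 at P7 against P1, 25 in E2f4 OE, 7 with E2f4 sh1, 27 and 23 with Tead1 sh3 and sh4, and 17 and 20 with Atf3 sh5 and sh6. Promoter peaks by fold enrichment gave 8 higher and 1 lower, where percentiles gave 3 and 7.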

Other observations

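The wider list of p53 pathway genes was divided between genes that act upstream of p53 and its other targets. At P7 against P1, 4 of 18 tested upstream kinases and regulators rose and 11 fell, with a median log2 fold change of -0.46, while 10 of 27 other targets rose and 6 fell, with a median of 0.11, beside 30.5% of all genes that rose and 31.9% that fell. Among the upstream genes Cdkn2a rose most (4.79 ± 0.26 on the log2 scale), and Chek1 (-2.65 ± 0.23), Sirt1 (-1.33 ± 0.11) and Atm (-1.24 ± 0.14) were among those that fell by over 2-fold. With each of Tead1 sh3 and sh4, 4 of 17 upstream genes fell and the other 13 did not pass edgeR's test, while of 27 other targets 13 rose with sh3 and 14 with sh4 and 2 fell with each, beside 17.6% (sh3) and 14.4% (sh4) of all genes that rose and 17.7% and 14.7% that fell.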
